A study of Homo sapiens with 6 samples.

Results

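The genes described here are the transcription factor SRF and 9 genes of the actin cytoskeleton that are known as targets of SRF and its MRTF partners, namely ACTB, ACTG1, TAGLN, MYL9, TPM1, TPM4, VCL, FLNA and CNN2. They were chosen by name, from the symbols matched to the Ensembl gene identifiers of the count table, and they make up 10 of its 20422 rows. All 10 passed the filter on low counts, which kept 12386 genes.

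The study asked how overexpression of the microprotein APPLE, encoded by an open reading frame (ORF) of the lncRNA ASH1L-AS1, alters gene expression in HepG2, a line of human liver cancer cells. Sequencing covered 3 libraries of HepG2 carrying the control vector (NC) and 3 libraries of HepG2 overexpressing that ORF fused to a Flag tag (ORF-Flag); the methods place the native leader sequence in front of the ORF. The labels describe transfection of plasmids, while the methods of the study describe lentiviral infection of HepG2 and puromycin selection of stable cells. Total counts were 20081203, 24907524 and 30088457 in NC 1, 2 and 3, and 26866148, 17494668 and 27015836 in ORF-Flag 1, 2 and 3. All libraries come from this line, and separate cultures are not stated for the 3 libraries of a group, so the p-values measure only the spread between these libraries, which may be technical.

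SRF binds DNA at a motif named the CArG box and works with partner proteins of different families. The MRTF partners are held back in the cytoplasm by free actin monomers and enter the nucleus when monomers are used up in filaments, so that genes for actin and its binding proteins follow the state of the filaments. The TCF partners, among them ELK1, answer to ERK signaling and act on immediate early genes. In liver cancer cells this system is known for its part in cell shape, adhesion and migration.

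The libraries of a group were not all alike. On the first principal component of log2 CPM, which carried 32.5% of the variance, NC 1, 2 and 3 lay at -16.9, -7.74 and -3.56 and ORF-Flag 1, 2 and 3 at 5.56, 14.2 and 8.44, with NC 1 farthest out. On the second, with 19.5% of the variance, ORF-Flag 2 stood apart at 14.3, the others lying between -9.81 and 3.59.

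The ORF-Flag libraries held lower levels of 3 of the 10 genes at an adjusted p below 0.05 (edgeR's quasi-likelihood test), and higher levels of 0 of them, also at an unadjusted p below 0.05 and with DESeq2 or limma. MYL9, a regulatory light chain of nonmuscle and smooth muscle myosin, fell by 20.0%. VCL, which links adhesions to actin, fell by 8.93%, and FLNA, which crosslinks actin filaments, fell by 8.51%. Among all 12386 genes tested, 4.45% passed this threshold, 1.98% with lower and 2.47% with higher levels in ORF-Flag. SRF, both cytoplasmic actins, both tropomyosins, TAGLN and CNN2 did not pass it. In bulk RNA, fewer cells expressing a gene and less RNA of it per cell cannot be told apart.

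**Figure D1:**
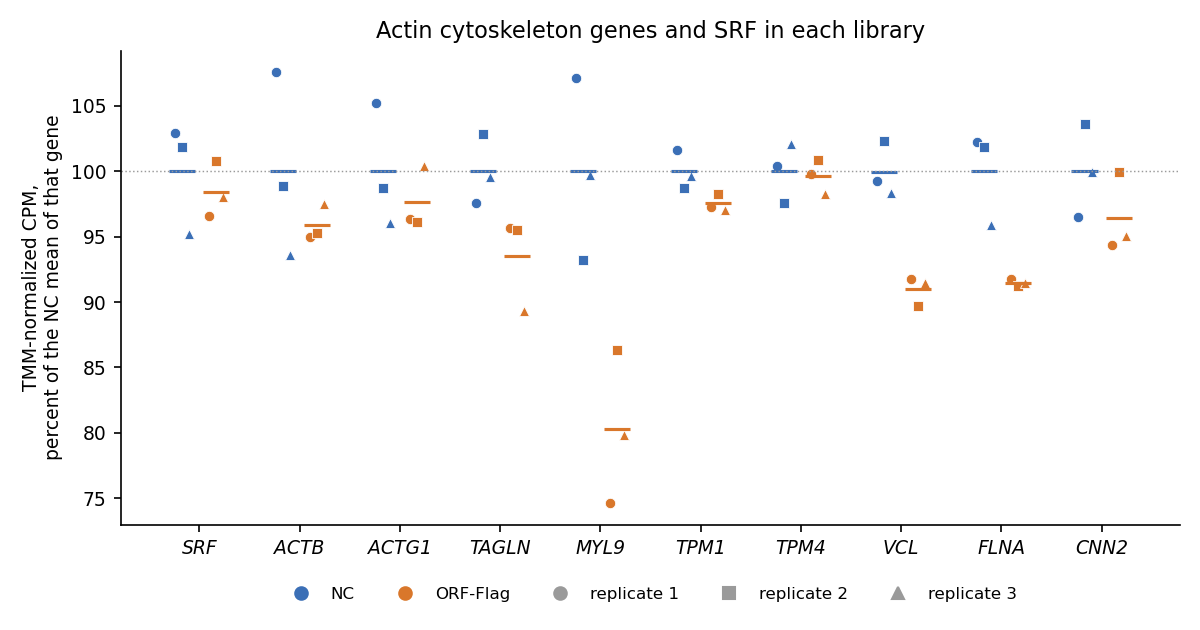
TMM-normalized CPM of the 10 genes in each library, as percent of the NC mean of that gene (y axis). Blue marks NC and orange ORF-Flag, the marker shape gives the replicate and the horizontal line the group mean; the orange points of MYL9, VCL and FLNA all lie under the blue ones, as do those of TAGLN and TPM1 by smaller distances.

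SRF itself (chr6:43171299-43181507, plus strand, GRCh38) is the DNA-binding factor of the system. Its level was 27.4, 27.1 and 25.3 CPM (counts put on 1 scale by library size and TMM factor) in NC 1, 2 and 3, and 25.7, 26.8 and 26.0 CPM in ORF-Flag 1, 2 and 3. NC 3 was the lowest of the 6 libraries, and the groups overlapped. The log2 fold change from NC to ORF-Flag was -0.022 with a 95% interval from -0.15 to 0.11 (edgeR's quasi-likelihood test, adjusted p = 0.902). MEF2A, a relative of SRF with the same type of DNA-binding domain, had a log2 fold change of 0.048 and did not pass the test.

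To show where the CArG box lies near annotated starts of these genes, RefSeq promoter windows (GRCh38.p14) were searched on both strands. The windows ran from 250 bases before to 50 bases after each annotated start. The box is its own reverse complement in pattern, so a match counts for both. Windows were matched for 7 of the 10 genes, namely SRF, ACTG1, TPM1, TPM4, VCL, FLNA and CNN2. The box was found in 5 of their 10 windows, each of another gene, against 1.29% of all 35116 windows. The matches of these 5 genes are printed with the box in capitals, from 5′ to 3′ on the strand of the gene.
SRF, chr6:43171214-43171268, plus strand: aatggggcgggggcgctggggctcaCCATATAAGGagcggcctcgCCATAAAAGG
ACTG1, chr17:81512874-81512903, minus strand: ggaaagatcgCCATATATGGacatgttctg
TPM4, chr19:16067340-16067399, plus strand: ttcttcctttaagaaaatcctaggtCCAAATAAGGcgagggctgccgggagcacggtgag
CNN2, chr19:1026494-1026553, plus strand: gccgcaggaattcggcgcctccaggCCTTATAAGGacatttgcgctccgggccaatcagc
FLNA, chrX:154374694-154374753, minus strand: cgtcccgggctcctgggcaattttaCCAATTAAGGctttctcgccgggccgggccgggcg
The SRF window holds 2 boxes, which begin 30 and 10 bases before the start. The box begins 94 bases before the start in ACTG1 and FLNA, 89 in CNN2 and 173 in TPM4. For ACTG1 and TPM4 the stretch shown lies inside the GENCODE v29 coordinates of the gene, so these windows belong to internal starts. In GENCODE v29, 18 of the 30 bases shown for ACTG1 lie in an exon of that gene, and 0 of those shown for the other 4 genes lie in an exon of their own gene. Other windows of SRF and TPM4, and the windows of TPM1 and VCL, do not hold these letters. A match describes letters in a window and not binding, and among the 3 genes that fell the box was found in FLNA and not in VCL.

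The actins form the filament. ACTB (chr7:5527147-5563784, minus strand), which encodes beta-actin, had 1949, 1792 and 1696 CPM in NC 1, 2 and 3, and 1721, 1726 and 1767 CPM in ORF-Flag 1, 2 and 3. The NC libraries held both the highest and the lowest of these values, so the groups overlapped. The log2 fold change was -0.060 with a 95% interval from -0.14 to 0.020 (edgeR's quasi-likelihood test, adjusted p = 0.440). Without NC 3, the NC library with the lowest ACTB, the log2 fold change was -0.11 and ACTB passed the test (edgeR's quasi-likelihood test, adjusted p = 0.0427). Without NC 1, the NC library with the highest ACTB, the log2 fold change was -0.0048 (edgeR's quasi-likelihood test, adjusted p = 0.966). GAPDH, a glycolytic enzyme often used beside ACTB as a reference in qPCR, had a log2 fold change of -0.0078.

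ACTG1 (chr17:81509971-81523847, minus strand) encodes gamma-actin, which differs from beta-actin in few residues. It had 2351, 2207 and 2146 CPM in NC 1, 2 and 3 and 2153, 2148 and 2244 CPM in ORF-Flag 1, 2 and 3. NC 1 was highest, and the remaining NC libraries lay within or next to the ORF-Flag range. Its log2 fold change was -0.034 (95% interval -0.11 to 0.038), and it was 0.0035 without NC 1. ACTB made up 44.8 ± 0.60% (SD, n = 3) of the counts of both actins in NC and 44.3 ± 0.263% (SD, n = 3) in ORF-Flag (two-sided exact permutation test, p = 0.40); such shares within families were chosen after the values were seen. Of the 31-base stretches in the longest transcript, 22.9% for ACTB and 18.6% for ACTG1 also occur in transcripts of other genes, many of them pseudogenes. How reads that fit several genes were counted is not stated, so the levels of both actins are uncertain to that extent.

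Tropomyosins lie along the filament and gate the access of myosin and other proteins. TPM1 (chr15:63042632-63071915, plus strand) had 46.4, 45.1 and 45.5 CPM in NC 1, 2 and 3 and 44.4, 44.9 and 44.3 CPM in ORF-Flag 1, 2 and 3. All ORF-Flag values lay below all NC values, but the gap between the groups, 45.1 to 44.9 CPM, was small, and the log2 fold change of -0.036 did not pass the test (95% interval -0.14 to 0.063). TPM4 (chr19:16067021-16103005, plus strand) lay between 295 and 309 CPM in NC and between 297.0 and 305 CPM in ORF-Flag. The ranges overlapped almost fully, and the log2 fold change was -0.0061 (95% interval -0.073 to 0.061). TPM3, a relative expressed at 271.5 CPM in NC, had a log2 fold change of 0.014. Of the 31-base stretches, 42.6% for TPM1 occur in another gene, mainly the antisense gene TPM1-AS, and 40.6% for TPM4 occur elsewhere.

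TAGLN and CNN2 belong to a shared family of proteins that bind and stabilize actin filaments. TAGLN (chr11:117199321-117204782, plus strand), a marker of smooth muscle, had 23.5, 24.8 and 24.0 CPM in NC 1, 2 and 3 and 23.1, 23.0 and 21.6 CPM in ORF-Flag 1, 2 and 3. The groups did not overlap, with ORF-Flag 3 lowest, but the log2 fold change of -0.10 did not pass the test (95% interval -0.23 to 0.032, adjusted p = 0.437 in edgeR's quasi-likelihood test). TAGLN shares 446 exon bases with PCSK7 on the opposite strand. PCSK7 itself had 31.2 CPM in NC and 30.6 CPM in ORF-Flag, and since the use of strand in counting is not stated, reads of both genes over these bases cannot be told apart. CNN2 (chr19:1026581-1039068, plus strand), a calponin of nonmuscle cells, lay between 119 and 128.0 CPM in NC and between 116.5 and 123.4 CPM in ORF-Flag. The groups overlapped, and the log2 fold change was -0.056 (95% interval -0.14 to 0.024). Of the 31-base stretches of CNN2, 34.7% occur in other genes.

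MYL9 (chr20:36541484-36551447, plus strand) had the lowest counts of the 10 genes, from 288 to 572 per library. Its level was 20.5, 17.9 and 19.1 CPM in NC 1, 2 and 3, and 14.3, 16.5 and 15.3 CPM in ORF-Flag 1, 2 and 3. The lowest NC library, NC 2, lay above the highest ORF-Flag library, ORF-Flag 2. The group means were 19.2 ± 1.34 CPM (SD, n = 3) and 15.4 ± 1.12 CPM (SD, n = 3). The log2 fold change was -0.32 with a standard error of 0.076 and a 95% interval from -0.48 to -0.16 (edgeR's quasi-likelihood test, adjusted p = 0.0153). The adjusted p was 0.107 without ORF-Flag 1 and 0.0737 without ORF-Flag 3 (edgeR's quasi-likelihood test), with log2 fold changes of -0.27 and -0.32, and lay between 0.0126 and 0.0407 in the other 4 fits with a library left out. Next to none of its sequence is shared with other genes, at 0.466% of the 31-base stretches.

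MYL12A and MYL12B encode the other regulatory light chains of nonmuscle myosin. MYL12A had 218, 221 and 234.0 CPM in NC 1, 2 and 3 and 238, 251 and 247 CPM in ORF-Flag 1, 2 and 3. All ORF-Flag libraries lay above all NC libraries, opposite to MYL9. MYL12A rose, with a log2 fold change of 0.13 (edgeR's quasi-likelihood test, adjusted p = 0.0366), but 5 of the 6 fits with a library left out lost this call. MYL12B had a log2 fold change of 0.10 and did not pass (edgeR's quasi-likelihood test, adjusted p = 0.0908). MYL9 made up 3.36%, 2.86% and 2.92% of the summed CPM of MYL9, MYL12A and MYL12B in NC 1, 2 and 3, and 2.14%, 2.39% and 2.28% in ORF-Flag 1, 2 and 3. The groups did not overlap, which was fixed by MYL9 being lower and MYL12A and MYL12B higher in every ORF-Flag library. A two-sided exact permutation test therefore had to give p = 0.10, the smallest that 3 libraries against 3 allow. This share was chosen after the values were seen, and no conclusion is drawn from it. The essential light chains MYL6 and MYL6B had log2 fold changes of 0.075 and -0.052, neither past the threshold.

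FLNA (chrX:154348524-154374638, minus strand) encodes filamin A, which joins filaments into a network and ties it to the membrane. Its level was 1003, 999 and 940.2 CPM in NC 1, 2 and 3, and 900.1, 895 and 897 CPM in ORF-Flag 1, 2 and 3. The ORF-Flag libraries lay close together and below all NC libraries, with NC 3 nearest to them. This gave a log2 fold change of -0.13 with a standard error of 0.033 and a 95% interval from -0.20 to -0.061 (edgeR's quasi-likelihood test, adjusted p = 0.0231).

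VCL (chr10:73995193-74121363, plus strand) encodes vinculin, which binds talin and actin at focal adhesions and cell junctions. Its level was 133, 137.5 and 132 CPM in NC 1, 2 and 3, and 123, 121 and 123 CPM in ORF-Flag 1, 2 and 3. The groups did not overlap, and each spanned a narrow range. From NC to ORF-Flag the log2 fold change was -0.14, with a standard error of 0.036 and a 95% interval from -0.21 to -0.061 (edgeR's quasi-likelihood test, adjusted p = 0.0301). VCL shares 1109 exon bases with AP3M1 on the opposite strand, and AP3M1 had 64.4 CPM in NC and 66.3 CPM in ORF-Flag. CTNNA1 and CTNNAL1, relatives of vinculin in cell junctions, had log2 fold changes of 0.017 and -0.018.

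The calls of VCL and FLNA were lost in 4 of the 6 fits with a library left out, those without NC 2, ORF-Flag 1, ORF-Flag 2 or ORF-Flag 3. The adjusted p of VCL then lay between 0.0917 and 0.153, and that of FLNA between 0.0724 and 0.118 (edgeR's quasi-likelihood test), against lowest values of 0.0113 and 8.67e-04 without NC 3. Their log2 fold changes stayed between -0.15 and -0.12 for VCL and between -0.16 and -0.11 for FLNA over all 6 fits. The count of the 10 genes called was 3 without NC 1, 1 without NC 2 or without ORF-Flag 2 (MYL9), 4 without NC 3 (ACTB added), and 0 without ORF-Flag 1 or without ORF-Flag 3. The calls among all genes also moved, from 551 with 6 libraries to 199 without ORF-Flag 3 and 1058 without NC 3.

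**Figure D2:**
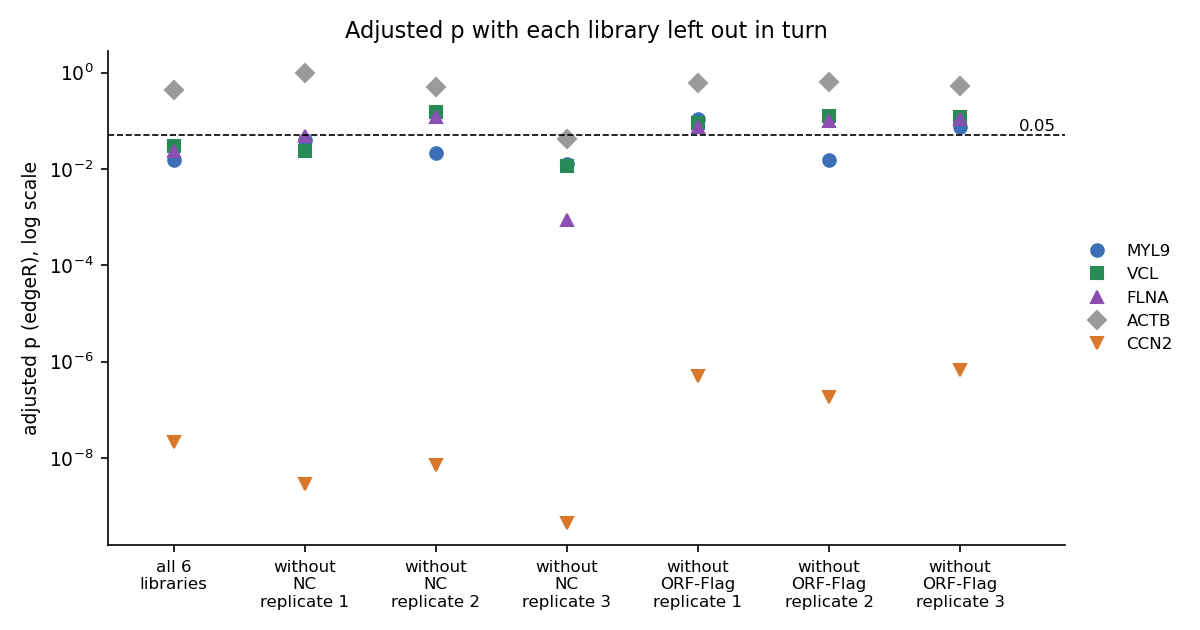
Adjusted p of MYL9, VCL, FLNA, ACTB and CCN2 (y axis, log scale, edgeR's quasi-likelihood test) with all 6 libraries and with each library left out. The dashed line marks 0.05; MYL9, VCL and FLNA cross it when single libraries are removed, and CCN2 stays far below it in each fit.

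All 10 log2 fold changes were below 0, from -0.32 for MYL9 to -0.0061 for TPM4, with a median of -0.058 against -0.0012 over all genes tested. Of all 12386 genes tested, 6253 had a log2 fold change below 0. For TPM4 and ACTG1 this sign turned when single libraries were left out. The groups did not overlap in 5 of the 10 genes, MYL9, VCL, FLNA, TAGLN and TPM1, all lower in ORF-Flag, and in 0 with higher levels. Among all genes tested the corresponding shares were 10.9% lower and 11.5% higher. By another rule, an unadjusted p below 0.05 with more than a 1.2-fold difference, only MYL9 of the 10 was lower, against 2.16% of all genes tested.

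NC 1 had the highest summed share of these genes. Together they took 0.602%, 0.569% and 0.543% of the counts in NC 1, 2 and 3, and 0.542%, 0.540% and 0.555% in ORF-Flag 1, 2 and 3. The value of NC 3 fell within the ORF-Flag range, so the groups overlapped, and most of the sum came from ACTB, ACTG1 and FLNA. NC 1 was also the library farthest from ORF-Flag among NC on the first principal component, and whether this has a part in the levels of the actins was not tested.

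**Figure D3:**
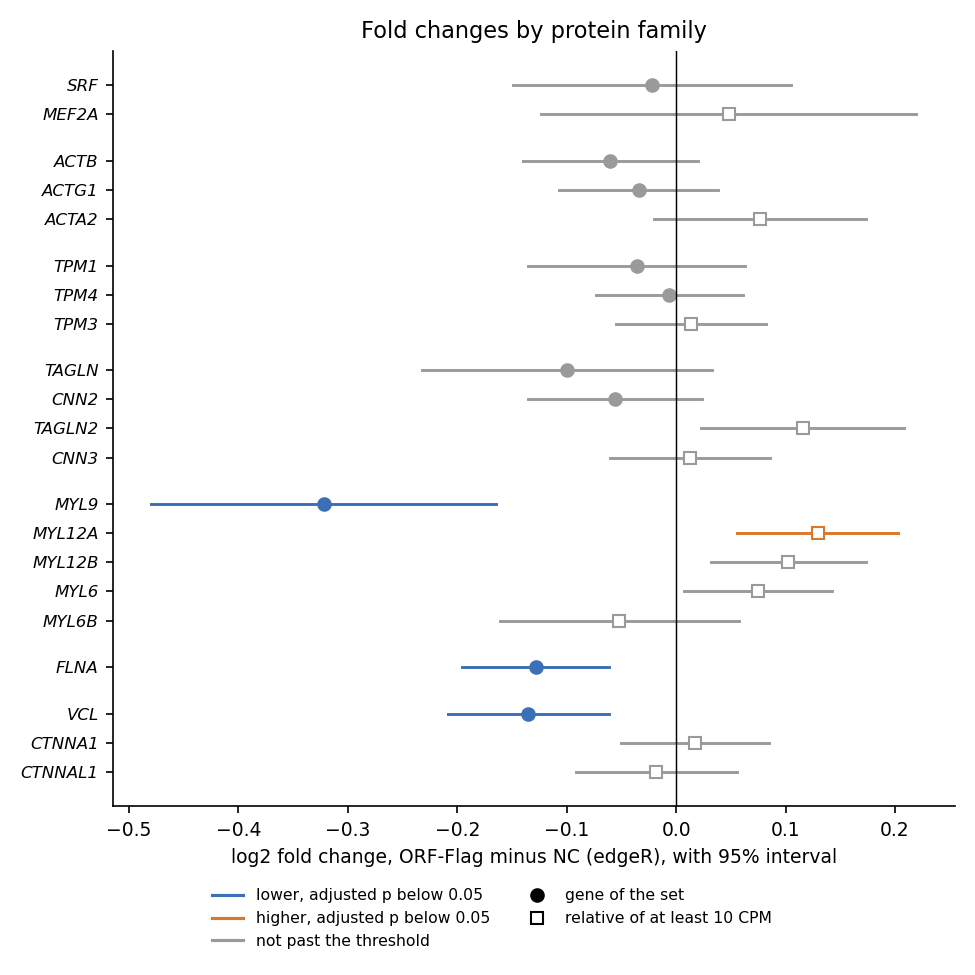
Log2 fold change from NC to ORF-Flag (x axis, edgeR, with 95% interval) for the 10 genes (filled circles) and relatives of at least 10 CPM that are reported here (open squares), by protein family. MYL9 at -0.32 lies apart from MYL12A at 0.13 and MYL12B at 0.10.

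In the families of the 10 genes, 15 of 25 relatives were tested, of which 1 was called higher (MYL12A) and 0 lower, with a median log2 fold change of 0.048. For comparison, 2.47% of all genes tested were called higher and 1.98% lower, with a median of -0.0012. ACTA2, the smooth muscle actin, had 70.5, 70.1 and 62.8 CPM in NC 1, 2 and 3 and 71.3, 71.7 and 71.0 CPM in ORF-Flag 1, 2 and 3. Its ORF-Flag values lay above all NC values, and its log2 fold change of 0.077 did not pass the test. TAGLN2, the nonmuscle relative of TAGLN, had a log2 fold change of 0.12 that did not pass either, and CNN3, a relative of CNN2, had 0.013. TAGLN made up 28.4 ± 1.17% (SD, n = 3) of the CPM of TAGLN and TAGLN2 in NC and 25.5 ± 0.976% (SD, n = 3) in ORF-Flag. TAGLN was lower and TAGLN2 higher in every ORF-Flag library, so the groups had to separate. A two-sided exact permutation test was thus bound to give p = 0.10, the smallest possible. This share was chosen after the values were seen, and no conclusion is drawn from it.

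The tested partners of SRF did not pass the test. Among 9 partners and regulators, 7 were tested and 0 were called in either direction by edgeR, DESeq2 or limma, also 0 at an unadjusted p below 0.05 in edgeR, with a median log2 fold change of 0.035. Of all 12386 genes tested, edgeR called 4.45%, and at an unadjusted p below 0.05 it had 1151 higher and 1142 lower. With 7 genes tested, 0 calls lie near the share over all genes. MRTFA had 25.01 CPM in NC and 25.4 CPM in ORF-Flag, and MRTFB had 28.6 and 30.6 CPM, with log2 fold changes of 0.028 and 0.099. The TCF proteins ELK1, ELK3 and ELK4 had log2 fold changes of 0.16, -0.015 and 0.10. SCAI, which represses MRTF, and MICAL2, which oxidizes nuclear actin, had -0.024 and 0.035. MYOCD, the muscle-specific relative of the MRTFs, and ABRA had 0 counts in each library, which allows up to between 0.0997 and 0.172 CPM (3 counts, counting error only).

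Other genes known as MRTF targets moved both ways. Of 36 on the list, 30 were tested, 3 were called higher and 2 lower, and the median log2 fold change was 0.028. Among all genes tested, 2.47% were called higher and 1.98% lower, and the median was -0.0012. The 3 higher genes, ANKRD1, CCN1 and CCN2, encode a stress-responsive nuclear protein and a pair of secreted matricellular proteins, and are known as targets of YAP as well. ANKRD1 had 141.5, 162 and 159 CPM in NC 1, 2 and 3 and 254, 285 and 253 CPM in ORF-Flag 1, 2 and 3, without overlap. CCN2 had 61.4, 69.1 and 61.0 CPM in NC and 91.9, 94.6 and 94.0 CPM in ORF-Flag, and CCN1 rose from 19.2 ± 2.12 to 36.2 ± 1.29 CPM (SD, n = 3). Their log2 fold changes were 0.77, 0.55 and 0.91 for ANKRD1, CCN2 and CCN1, and the calls held in all 6 fits with a library left out.

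The 2 MRTF targets called lower were MYLK and TLN1. MYLK, the kinase that phosphorylates the regulatory light chains such as MYL9, had 40.7, 44.0 and 39.1 CPM in NC 1, 2 and 3 and 35.3, 35.3 and 35.1 CPM in ORF-Flag 1, 2 and 3. The groups did not overlap, and the log2 fold change was -0.23 (edgeR's quasi-likelihood test, adjusted p = 0.0176). TLN1, the talin that binds vinculin at adhesions, had 369, 362 and 341 CPM in NC and 320.3, 332 and 327 CPM in ORF-Flag, which gave -0.13 on the log2 scale (edgeR's quasi-likelihood test, adjusted p = 0.0312). The call of MYLK held in 2 of the 6 fits with a library left out and that of TLN1 in 1. TLN1 also counts among 36 actin network and adhesion genes, of which 34 were tested, 0 were called higher and 2 lower, with a median of 0.019. The other lower gene is ENAH, which extends filaments at the cell edge, with a log2 fold change of -0.15 (edgeR's quasi-likelihood test, adjusted p = 0.0166) and a call in 3 of the 6 such fits. The shares over all genes tested were 2.47% higher and 1.98% lower.

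Genes known as targets of SRF with the TCF partners numbered 10, of which 7 were tested, 2 were called higher and 0 lower, with a median log2 fold change of 0.29. The shares over all genes tested were 2.47% higher and 1.98% lower, with a median of -0.0012. FOSB, an AP-1 subunit, had 3, 4 and 5 counts in NC 1, 2 and 3 and 12, 12 and 25 counts in ORF-Flag 1, 2 and 3, so its log2 fold change of 2.07 rests on few reads. JUNB, another AP-1 subunit, rose from 14.5 ± 1.23 to 17.6 ± 0.869 CPM (SD, n = 3), a log2 fold change of 0.29. The call of FOSB held in 4 of the 6 fits with a library left out and that of JUNB in 1. With DESeq2, FOSB got no adjusted p and JUNB did not pass (adjusted p = 0.0816, the highest of 8 other settings, which began at 0.0137). EGR1, a zinc finger factor, had 3.07, 2.92 and 3.21 CPM in NC 1, 2 and 3 and 4.36, 4.25 and 4.33 CPM in ORF-Flag 1, 2 and 3, without overlap; it is named after its values were seen. Its log2 fold change of 0.49 just missed the threshold (edgeR's quasi-likelihood test, adjusted p = 0.0519), and it passed with limma-trend and without the filter on low counts.

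**Figure D4:**
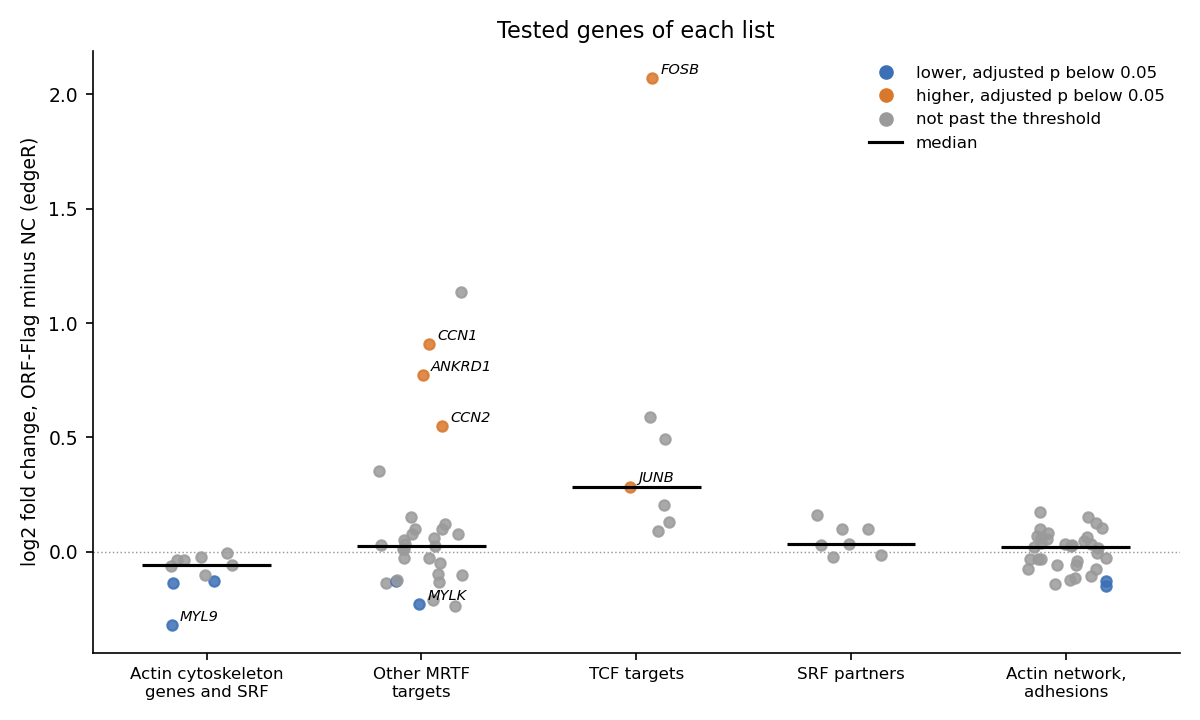
Log2 fold change from NC to ORF-Flag (y axis, edgeR) of the tested genes on each list. Blue and orange mark genes lower and higher at an adjusted p below 0.05 and black lines the medians, which lie at -0.058 for the 10 genes, 0.028 for other MRTF targets and 0.29 for TCF targets.

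Levels of different genes were compared as CPM per kilobase of all annotated exons, averaged over the 6 libraries; the exon lengths are from GENCODE v29, an older release than the 1 counted on. ACTG1 had the highest level per kilobase, 738 ± 26.8 (SD, n = 6), followed by ACTB with 504 ± 26.2 and FLNA with 88.7 ± 4.82. TPM4 with 35.0 and CNN2 with 33.3 CPM per kilobase had overlapping ranges, and VCL followed with 12.8. SRF, MYL9 and TAGLN, at 6.27, 6.12 and 5.96 CPM per kilobase, overlapped with their neighbors in this order, and TPM1 was lowest at 3.50. Per kilobase of the longest transcript the order of the top 6 was the same, but TPM4 with 97.2 and CNN2 with 53.5 CPM per kilobase were then farther apart, and TPM1, whose many exons add up to 12876 bases, moved from rank 10 to rank 7 with 11.4 CPM per kilobase.

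**Figure D5:**
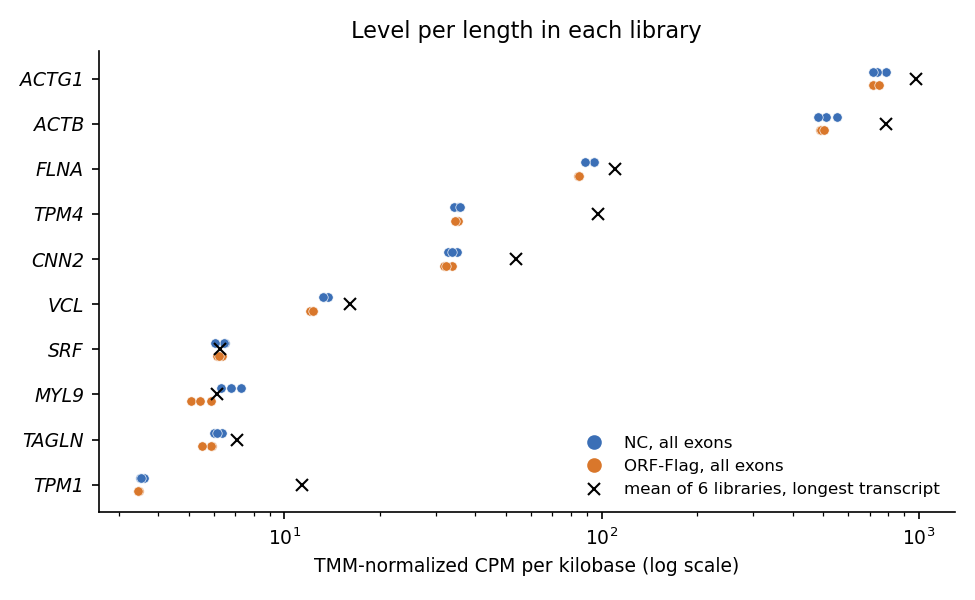
TMM-normalized CPM per kilobase of exon (x axis, log scale) of the 10 genes in each NC (blue) and ORF-Flag (orange) library, with crosses for the mean per kilobase of the longest transcript. ACTG1 and ACTB lie highest, and TPM1 is the gene whose place depends most on the length used.

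The genes whose pattern over the 6 libraries was most like the mean of the 10 genes were HTATSF1, NDRG3, FARP1, IGF2BP1 and HTRA2. The root mean square difference of centered log2 CPM was 0.0032 for HTATSF1 and 0.013 for HTRA2, against a median of 0.096 over 12376 other genes. Of the 10 genes themselves, FLNA was nearest to their mean at 0.029 and MYL9 farthest at 0.13.

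The libraries showed the liver line and little of other cell types. All 8 hepatocyte markers (ALB, AFP, APOA1, APOB, TTR, SERPINA1, HNF4A and FGB) were above 1 CPM in every library, their sum lay between 21430.0 and 22480.0 CPM, and APOB led it in all libraries except ORF-Flag 1, where ALB did. Of these 8, FGB, a fibrinogen chain, was called higher with a log2 fold change of 0.14, against 2.47% of all genes tested. FGB held this call in 1 of the 6 fits with a library left out, and the median of the 8 was 0.038. Of 8 smooth muscle markers 6 were under 1 CPM in each library, MYOCD was at 0, and the sum, 79.3, 77.1 and 71.3 CPM in NC 1, 2 and 3 and 78.2, 78.6 and 78.0 CPM in ORF-Flag 1, 2 and 3, was led by ACTA2 and held MYH11, the smooth muscle myosin heavy chain, at between 6.14 and 7.98 CPM. MYH11 was chosen after its values were seen; its ORF-Flag values lay below all NC values, and its log2 fold change of -0.24 did not pass the test. All 7 fibroblast markers were under 1 CPM in each library and summed to between 0.632 and 1.08 CPM, led by PDGFRB. Of 6 leukocyte and endothelial markers 4 were under 1 CPM in each library, and the sum of the 6, between 41.5 and 47.4 CPM, was led by CD68. PECAM1, an endothelial marker, lay between 3.84 and 6.03 CPM, with all ORF-Flag values above all NC values. Its log2 fold change of 0.39 did not pass the test, and it was named after its values were seen. Of the smooth muscle, fibroblast, and leukocyte and endothelial lists, 3, 1 and 2 genes were tested and 0 were called by edgeR, DESeq2 or limma, with 0, 0 and 1 (PECAM1) at an unadjusted p below 0.05 in edgeR and medians of 0.077, -0.41 and 0.18. With so few genes tested, 0 calls lie near the 4.45% called by edgeR among all genes tested.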

How the data were processed

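RNA was extracted from HepG2 with TRIzol and sequenced as 3 NC and 3 ORF-Flag libraries. The authors deposited raw read counts per Ensembl gene without normalization. The submitters' processing notes name cutadapt 1.11, HISAT2 2.1.0, featureCounts 1.6.0, edgeR and GRCh38; the annotation release, the strand setting and the treatment of reads that fit several genes are not given in the sources used here.

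Of 20422 identifiers, 20421 were matched to a symbol and 20237 to a GENCODE v29 model (GRCh38) by their stable part; coordinates and lengths are from that release. The identifier versions of the 10 genes in the count table are newer, so these lengths come from another release than the counts. Counts were analyzed in R 4.3.3 with edgeR 4.0.16 (filterByExpr, TMM, glmQLFit, glmQLFTest), with Benjamini-Hochberg adjustment over 12386 genes. The standard error came from the quasi-likelihood F statistic. TMM factors lay between 0.995 and 1.01, and the common biological coefficient of variation was 0.0389. A depth of 3 counts corresponds to between 0.0997 and 0.172 CPM. The methods of the study name limma, which was run as an alternative because the values are raw counts. Alternatives were DESeq2 1.42.0, limma-trend (prior count 2) and limma-voom (limma 3.58.1), no TMM, upper quartile factors, no filter, at least 10 counts in every library, a replicate block, the removal of each library in turn, and calls that require a fold change above 1.2. The edgeR test was also run on simulated data with 200 genes changed by 1.5-fold. Its outcome is not reported here, and no conclusion is drawn from it.

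The 10 genes and all lists (MRTF targets, TCF targets, SRF partners, protein families, actin network and cell type markers) were chosen with earlier results of these data known. Named were the 10 genes, all SRF partners, family members with at least 10 CPM, GAPDH, the 5 genes of most similar pattern, and called genes of each list (all where 6 or fewer, otherwise the 3 highest and 3 lowest). Some genes and lists that this rule covers are not reported here.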

Additional observations from a re-analysis of the deposited data

How the results depend on the processing

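With DESeq2, limma-trend, limma-voom, no TMM, upper quartile factors, no filter, at least 10 counts in every library, or the replicate block, the genes called among the 10 were MYL9, VCL and FLNA in each case. Of the other listed genes, 7 were called higher and 3 lower in the reported fit. No filter gave 9 and 5, the replicate block 8 and 5, and DESeq2 5 and 4. Without TMM and with upper quartile factors the counts were 7 and 4. They were 8 and 3 with limma-trend, 7 and 3 with limma-voom, and 6 and 3 with at least 10 counts in every library. Over these settings the log2 fold changes lay between -0.33 and -0.32 for MYL9, between -0.14 and -0.13 for VCL and at -0.13 for FLNA. Deviations from the group means had correlations across genes of 0.067, 0.027 and 0.045 for libraries with the same replicate number. For different numbers the correlations lay between -0.078 and 0.030. All were small, and the numbers were not taken to pair the libraries. With the replicate block 3 of the 10 genes and 13 other listed genes were called, against 3 and 10 without it. Among all genes tested, 731 were called with the block and 551 without it.

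A fold change above 1.2 left 1 of the 10 genes, MYL9, with an unadjusted p below 0.05 and also 1 with an adjusted p below 0.05. With each library left out, between 0 and 4 of the 10 genes and between 3 and 16 other listed genes were called, with fewer samples in each fit, while all genes called lay between 199 and 1058 against 551 with all libraries. The log2 fold change of ACTG1 lay between -0.063 and 0.0035 in these fits, above 0 without NC 1, and that of TPM4 between -0.024 and 0.0089, at 0.0089 without NC 3 and 0.0040 without ORF-Flag 3; the cause was not tested. Depth limits MYL9 most among the 10 genes, with 288 to 572 counts, and the call of FOSB rests on 3 to 25 counts.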

Other observations

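The levels of 3 further listed genes are given here; they were chosen after their values were seen. CDC42, which regulates the cytoskeleton, had between 0 and 5 counts per library and was not tested. ARPC4, a subunit of the ARP2/3 complex, lay between 0.407 and 1.08 CPM. TTR, a hepatocyte marker, lay between 5.63 and 6.66 CPM. The cause of these low levels was not tested.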
